A study of Mus musculus with 9 samples.

Results

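Genes of 10 hypothalamic hormones and receptors that govern the anterior pituitary were followed in RNA sequencing of the mouse hypothalamus. The members were taken by gene name from the deposited count table, which holds 54532 genes, and all 10 names were found: Crh, Trh, Ghrh, Sst, Gnrh1, Kiss1, Tac2, Npvf, Ghr and Crhr1. A total of 9 of them passed the filter on low counts, and Kiss1 did not, since its row holds 0 in every library. The 9 libraries came from wild-type male pups of the outbred ICR stock on postnatal day 21, with 3 libraries in each of 3 groups. In LP the mother ate a control low-fat diet with 10% of its calories from fat, and the pup was given PBS as vehicle. In HP the mother ate a high-fat high-sucrose diet with 45% of its calories from fat, and the pup was given PBS. In HA the mother ate the diet of HP, and the pup was given 4-PBA (4-phenylbutyric acid), a chemical chaperone and inhibitor of histone deacetylases. Injections were peripheral and daily, from postnatal day 4 to day 16. Feeding began when the females were 5 weeks old, preceded mating by 5 weeks and lasted until weaning, and litters held 10 pups. The 9 libraries include no low-fat group with 4-PBA, so 4-PBA is set against PBS on the same diet only under the high-fat high-sucrose diet. Nothing in the labels tells which pups were littermates, and the p-values speak only of the scatter among these libraries, which may be technical.

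Hypophysiotropic hormones are peptides that hypothalamic neurons release into the portal vessels of the median eminence, from which they reach the anterior pituitary. Corticotropin-releasing hormone (Crh) drives ACTH, thyrotropin-releasing hormone (Trh) drives TSH, and growth hormone is driven by Ghrh and held back by somatostatin (Sst). Gonadotropin-releasing hormone (Gnrh1) drives LH and FSH. It is itself stimulated by kisspeptin (Kiss1) and neurokinin B (Tac2) and restrained by the RFamide peptides made from Npvf. Ghr, the growth hormone receptor, and Crhr1, a receptor for CRH, let hypothalamic neurons respond to these axes.

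The sequences shown are those of the 2 members whose libraries did not overlap between HA and HP, and of the member that had no counts. They are the 250 bases upstream of the start of Sst (chr16:23890845-23891094, minus strand) and of both Ghrh starts, the distal (chr2:157346656-157346905, minus strand) and the proximal (chr2:157337427-157337676, minus strand), from RefSeq on GRCm38.p6. Capitals mark exact matches to the cyclic AMP response element TGACGTCA, searched on both strands, and to the TATA box TATAAA, searched on the strand of the gene.
Sst upstream: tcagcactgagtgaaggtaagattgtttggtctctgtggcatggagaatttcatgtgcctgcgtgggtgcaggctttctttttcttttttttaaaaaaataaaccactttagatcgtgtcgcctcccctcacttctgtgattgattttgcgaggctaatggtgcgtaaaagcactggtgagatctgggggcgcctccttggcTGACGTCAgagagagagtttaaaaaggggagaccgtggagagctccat
Ghrh distal upstream: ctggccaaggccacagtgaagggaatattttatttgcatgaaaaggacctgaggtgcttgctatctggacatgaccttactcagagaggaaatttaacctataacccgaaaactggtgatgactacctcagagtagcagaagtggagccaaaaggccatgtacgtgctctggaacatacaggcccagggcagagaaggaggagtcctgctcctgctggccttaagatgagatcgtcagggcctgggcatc
Ghrh proximal upstream: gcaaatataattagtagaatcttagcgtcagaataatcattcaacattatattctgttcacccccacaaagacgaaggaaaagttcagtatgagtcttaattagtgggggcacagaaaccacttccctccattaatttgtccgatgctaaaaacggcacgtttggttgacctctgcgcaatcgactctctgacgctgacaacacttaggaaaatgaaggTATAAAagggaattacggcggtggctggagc
Of the 10 members, 8 had an entry in the RefSeq table, with 10 starts in all. Crh and Gnrh1 had none. The element TGACGTCA lay 48 bases before the start of Sst and in no other of the 10 windows, against 508 of 32851 promoter windows of the same length (1.55%). TATAAA lay 31 bases before the proximal start of Ghrh and 29 bases before that of Npvf, against 7.59% of all windows. A match describes these letters only, and the counts are summed per gene, so they do not tell the Ghrh starts apart.

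Total counts lay between 18226924 and 21823961 per library. The tissue label was checked against 12 markers of hypothalamic neurons (Hcrt, Pmch, Avp, Oxt, Agrp, Npy, Pomc, Cartpt, Nkx2-1, Sim1, Otp and Gal). All 12 passed the filter, and their summed level was 1122 to 1322 CPM in LP, 1197 to 1354 CPM in HP and 1090 to 1417 CPM in HA (CPM, counts scaled to the TMM library size). Some libraries stood apart in genes of neighbouring tissue. LP replicate 3 and HA replicate 3 were high in 9 meningeal markers, which summed to 516 and 1089 CPM there and to 72.2 to 148.9 CPM elsewhere. The sum of 8 striatal markers was 319 and 408 CPM in LP replicates 1 and 2, against 197 to 222 CPM in the other 7. The sum of 9 pituitary markers was 52.1 CPM in HA replicate 3 and 16.4 to 31.9 CPM elsewhere, with Prl and Pou1f1 at or below 0.639 CPM throughout. Fewer cells of a type and less RNA per cell cannot be told apart in such bulk samples.

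Transcript levels can be ordered between genes on the deposited FPKM scale, a count per length of the gene and per size of the library. Sst was the most abundant of the 10, with 221 ± 17.1 FPKM over the 9 libraries (SD), and Trh followed with 91.7 ± 7.03 FPKM. The ranges of these 2 genes did not overlap. Npvf had 18.2 ± 4.91 FPKM and Tac2 15.9 ± 1.2 FPKM, and the range of Tac2 (14.4 to 17.7 FPKM) lay inside that of Npvf (11.3 to 26.0 FPKM). Ghrh, at 8.97 ± 1.64 FPKM, lay below every Tac2 value but overlapped Crh, at 3.84 ± 2.06 FPKM. Crh, Gnrh1 (3.26 ± 1.43 FPKM), Crhr1 (3.13 ± 0.452 FPKM) and Ghr (2.81 ± 0.321 FPKM) overlapped one another, so their order is not resolved. The FPKM scale uses the gene length given in the table, which is 9053 bases for Ghr and 642 bases for Gnrh1.

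**Figure D1:**
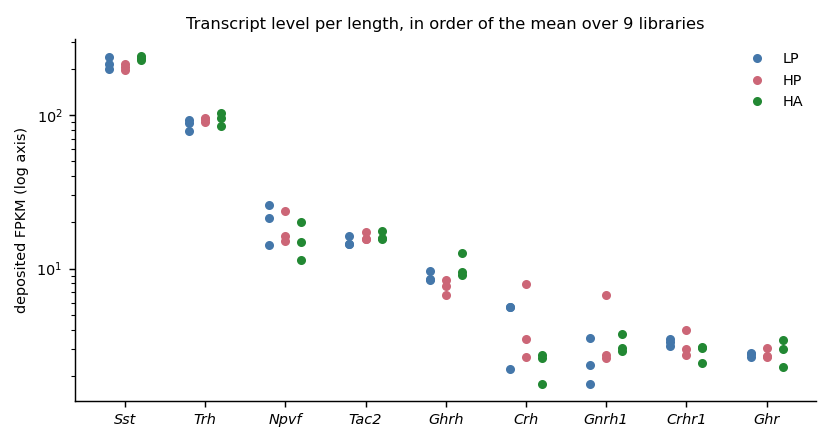
Deposited FPKM (log axis) of the 9 members that were counted, 1 point per library coloured by group, ordered by the mean over the 9 libraries. Sst (198 to 245 FPKM) and Trh (78.6 to 103 FPKM) stand clear of the rest, while Crh, Gnrh1, Crhr1 and Ghr overlap.

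No member passed the test in any of the 3 comparisons. In HP against LP, which asks about the diet of the dam, 0 of 9 members were called by edgeR's quasi-likelihood test at a Benjamini-Hochberg adjusted p under 0.05, beside 0.0114% of all 17546 genes tested. None had an unadjusted p under 0.05, against 6.12% of all genes, and the libraries of the groups overlapped for all 9, where 11.8% of all genes did not overlap. The median log2 fold change was 0.02 over the members and -0.002 over all genes. In HA against HP, which asks about 4-PBA under the high-fat high-sucrose diet, 0 of 9 were called, again beside 0.0114% of all genes. An unadjusted p under 0.05 was found for 2 of 9 members, against 5.42% of all genes, and the same number had no overlap, against 11.8%. These were Sst and Ghrh, both higher in HA (edgeR), where 5.92% of all genes lay higher without overlap and 3.0% had such a p in that direction. The median log2 fold change was 0.017 over the members and 0.003 over all genes. In HA against LP, which differs in diet and injection together, 0 of 9 were called, beside 0.0% of all genes. Here 0 members had an unadjusted p under 0.05, against 6.51% of all genes, and Crhr1 was the member without overlap, as 10.9% of all genes were. It lay lower in HA, as 5.51% of all genes did. The median log2 fold change was 0.116 over the members and 0.006 over all genes. DESeq2 and limma-voom also called 0 members in each comparison. Each pair of these comparisons has 1 group in common, so their estimates are not independent.

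**Figure D2:**
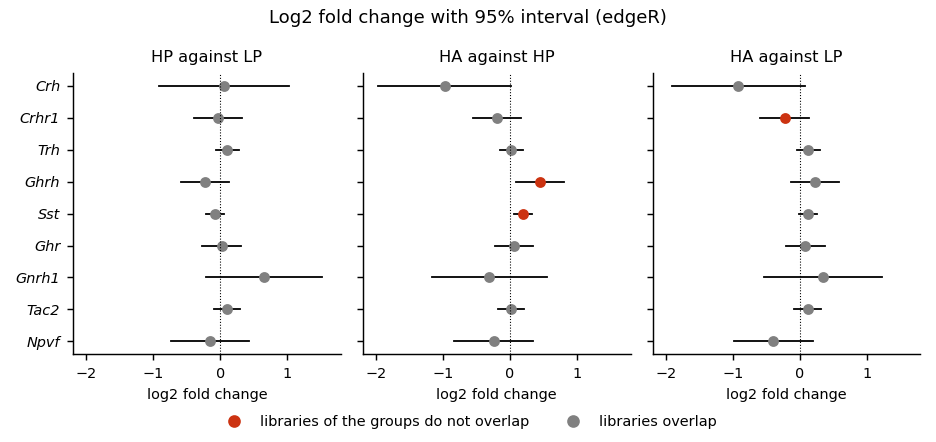
Log2 fold change of each member in the 3 comparisons, with points for edgeR estimates and lines for 95% intervals. Intervals of Crh and Gnrh1 are the widest of the 9 in each panel, and red points mark the cases with no overlap between libraries, Ghrh (0.45) and Sst (0.20) in HA against HP and Crhr1 (-0.22) in HA against LP.

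Growth hormone is controlled by the pair of members that differed most evenly between HA and HP. Sst (ENSMUSG00000004366, chromosome 16, 23889573 to 23890958, GRCm38, protein-coding) is the inhibitory arm and is also made by many neurons that do not project to the median eminence. It stood at 173, 146 and 156 CPM in LP replicates 1 to 3, at 156, 149 and 144 CPM in HP and at 171, 166 and 177 CPM in HA. The lowest HA library exceeded the highest HP library, while LP replicate 1 lay within the HA values. The group levels were 158 ± 13.3, 150 ± 6.02 and 172 ± 5.67 CPM (SD, n = 3 each). The log2 fold change of HA against HP was 0.20 (SE 0.060, 95% interval 0.06 to 0.33), with an unadjusted p of 0.00811 and an adjusted p of 0.84 (edgeR). Against LP, HA had a log2 fold change of 0.12 (95% interval -0.02 to 0.25, adjusted p = 0.802) and HP one of -0.08 (-0.22 to 0.05, adjusted p = 0.886).

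Ghrh (ENSMUSG00000027643, chromosome 2, 157329497 to 157347506, protein-coding), the stimulatory arm made in the arcuate nucleus, stood at 5.65, 5.78 and 6.45 CPM in LP, at 4.51, 5.65 and 5.12 CPM in HP and at 6.12, 8.45 and 6.34 CPM in HA. HA replicate 2 was the highest library, and the lowest HA library was above the highest HP library. LP overlapped with both. The log2 fold change of HA against HP was 0.45 (SE 0.161, 95% interval 0.09 to 0.81), with an unadjusted p of 0.0186 and an adjusted p of 0.84 (edgeR). Without HA replicate 2 it was 0.29 (unadjusted p = 0.0894, edgeR), and without HP replicate 1 it was 0.37 (unadjusted p = 0.0739). Of HA against LP it was 0.23 (95% interval -0.13 to 0.58, adjusted p = 0.834), and of HP against LP -0.23 (-0.58 to 0.13, adjusted p = 0.886). The summed level of 6 arcuate markers (Agrp, Npy, Pomc, Cartpt, Tbx3 and Prlr) was 218 to 240 CPM in LP, 226 to 290 CPM in HP and 251 to 300 CPM in HA, and its part in the level of Ghrh was not tested.

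The receptor gene Ghr (ENSMUSG00000055737, chromosome 15, 3317760 to 3583492, protein-coding) stood at 25.6, 24.2 and 25.1 CPM in LP, at 24.3, 27.6 and 23.9 CPM in HP and at 20.8, 27.0 and 31.3 CPM in HA. HA held both the lowest and the highest library. The log2 fold change of HA against HP was 0.06 (95% interval -0.23 to 0.35) and of HP against LP 0.02 (-0.27 to 0.31), with adjusted p of 0.951 and 0.992 (edgeR). Of the other 16 genes of the growth hormone axis, 14 were tested and 0 were called in any comparison. Socs2 and Cish, feedback inhibitors that STAT5 induces after growth hormone, were the pair of smallest p in HA against HP. Cish stood at 3.17, 3.99 and 3.29 CPM in HP and at 4.51, 4.60 and 4.90 CPM in HA, with no overlap (log2 fold change 0.42, unadjusted p = 0.0368, adjusted p = 0.84, edgeR). Socs2 stood at 8.07, 6.58 and 6.75 CPM in HP and at 9.02, 11.1 and 7.67 CPM in HA, with overlap (log2 fold change 0.38, unadjusted p = 0.0416, adjusted p = 0.84), and against LP the estimate was 0.34 (adjusted p = 0.784). Among somatostatin receptors, Sstr1 lay between 25.1 and 32.9 CPM over the 9 libraries and Sstr4 between 4.74 and 7.04 CPM. Sstr4 lay higher in HA than in LP, without overlap (log2 fold change 0.33, unadjusted p = 0.0353, adjusted p = 0.756, edgeR). Jak2, the kinase that carries the signal of Ghr, had the other smallest p in HP against LP, with a log2 fold change of -0.09 (adjusted p = 0.857). Sstr1 had 0.17 in that comparison (adjusted p = 0.833). Ghrhr, the pituitary receptor for Ghrh, had at most 0.107 CPM and was not tested.

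The stress axis held the member with the widest spread. Crh (ENSMUSG00000049796, chromosome 3, 19693401 to 19695396, protein-coding) stood at 7.45, 7.44 and 2.90 CPM in LP, at 10.5, 3.52 and 4.60 CPM in HP and at 3.64, 3.42 and 2.34 CPM in HA. These values rest on 153, 157 and 54 counts in LP, 188, 68 and 88 in HP and 79, 64 and 44 in HA. The highest and lowest library differed by 4.47 times. All HA libraries were low, but LP replicate 3 and HP replicate 2 were within or near their range, and the groups overlapped. Group levels were 5.93 ± 2.62 CPM in LP, 6.20 ± 3.73 CPM in HP and 3.13 ± 0.693 CPM in HA (SD, n = 3 each). The fold of HA against HP was 0.508 (95% interval 0.255 to 1.01), with an unadjusted p of 0.0539 and an adjusted p of 0.84 (edgeR). Without HP replicate 1 the log2 fold change moved from -0.98 to -0.38, with an unadjusted p of 0.362. HA against LP had a fold of 0.529 (95% interval 0.265 to 1.05, adjusted p = 0.79). Leaving out LP replicates 1 and 2 gave a log2 fold change of 0.11 in place of -0.92, with LP then a single library assumed to vary like the rest. These libraries were high in striatal markers but were also the LP libraries high in Crh, so leaving them out was bound to raise the estimate. HP replicate 1, the highest in Crh, had a striatal sum of 200 CPM, and the part of striatal tissue in the level of Crh was not tested. HP against LP had a fold of 1.04 (95% interval 0.533 to 2.03, adjusted p = 0.993), or a log2 fold change of 0.06, which was 1.09 without LP replicates 1 and 2 and -0.54 without HP replicate 1.

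Library titles carry a code whose meaning the labels do not state, and libraries with the same code did not always have like levels of Crh. Replicates 1 and 2 of HP and of HA all share a code, and stood at 10.5 and 3.52 CPM in HP and at 3.64 and 3.42 CPM in HA. Replicate 3 of HP and of HA share another. LP replicates 2 and 3 share yet another and stood at 7.44 and 2.90 CPM. No code occurs in both diets, so code and diet cannot be told apart against LP. With the code as a term in HA against HP, the log2 fold change was -0.98 for Crh, 0.45 for Ghrh and 0.20 for Sst, and the adjusted p was 0.755, 0.755 and 0.748 (edgeR). Crh moved with markers of cortex and hippocampus, whose sum over 8 genes was 35.2, 39.2 and 27.8 CPM for LP replicates 1 to 3, 33.8, 21.7 and 29.8 CPM for HP and 29.7, 28.8 and 24.0 CPM for HA. Of these markers Emx1 was at 0 in 3 libraries and at most 0.267 CPM in the others. Tbr1, a transcription factor of that list, stood at 5.31, 4.26 and 1.56 CPM in LP, at 8.01, 2.13 and 4.24 CPM in HP and at 4.10, 3.58 and 3.04 CPM in HA. Over the 9 libraries Pearson's r between the log2 levels of Crh and Tbr1 was 0.80, Spearman's rho was 0.92, and r was 0.55 without the 2 libraries farthest from the median of Crh. This correlation is a description over libraries that share depth and dissection, and the part of such tissue in the level of Crh was not tested.

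Crhr1 (ENSMUSG00000018634, chromosome 11, 104132855 to 104175523, protein-coding), the receptor, varied less. It stood at 8.23, 7.72 and 8.55 CPM in LP, at 6.73, 7.36 and 9.88 CPM in HP and at 5.94, 7.43 and 7.62 CPM in HA. The highest HA library was just under the lowest LP library, and HP overlapped with both. Its estimate in HA against LP was -0.22 (95% interval -0.59 to 0.14, adjusted p = 0.837, edgeR), and with libraries scaled by their totals the groups overlapped. Of the other 5 genes of the CRH system, 3 were tested and 0 were called. Crhbp, which encodes a protein that binds and sequesters CRH, ranged from 8.79 CPM in HA replicate 3 to 20.0 CPM in LP replicate 3 (HP against LP log2 fold change -0.13, HA against LP -0.29, adjusted p = 0.96 and 0.861, edgeR). Crhr2, the receptor that prefers urocortins, ranged from 4.97 to 7.68 CPM (HP against LP 0.24, HA against HP -0.21, adjusted p = 0.886 and 0.858). Ucn and Ucn2 had at most 0.156 and 0.104 CPM and were not tested.

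The thyroid axis gene Trh (ENSMUSG00000005892, chromosome 6, 92242061 to 92244650, protein-coding) was even across libraries. It stood at 129, 109 and 123 CPM in LP, at 125, 133 and 131 CPM in HP and at 118, 143 and 134 CPM in HA, and the groups overlapped. Its log2 fold change was 0.11 in HP against LP (95% interval -0.06 to 0.28), 0.02 in HA against HP (-0.15 to 0.19) and 0.13 in HA against LP (-0.04 to 0.30), with adjusted p of 0.886, 0.975 and 0.816 (edgeR). For HA against HP the interval of the fold ran from 0.903 to 1.14. Trh followed the summed level of 6 paraventricular markers (Sim1, Otp, Avp, Oxt, Pou3f2 and Nr3c1), which ran from 680 CPM in HA replicate 1 to 1101 CPM in HA replicate 3 and to which Avp gave 385 to 726 CPM. Pearson's r was 0.83, rho was 0.95, and r was 0.96 without the 2 libraries farthest from the median, over 9 libraries and as a description. The single markers did not all follow Trh. Pearson's r was 0.80 for Avp, 0.78 for Otp and 0.71 for Sim1 and Oxt, but -0.06 for Nr3c1 and -0.32 for Pou3f2. Without those 2 libraries it was 0.95 for Avp, 0.71 for Oxt and 0.32 to 0.44 for the rest. The sum of the 12 hypothalamic neuron markers had r = 0.855 with Trh, but that list also holds Sim1, Otp, Avp and Oxt, so a like r had to follow. The sum of the 6 arcuate markers, none of them in the paraventricular list, had r = 0.71 and rho = 0.82 with Trh. Without those 2 libraries its r was 0.51.

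All 5 other genes of the TRH system were tested and 0 were called. Trhr, the main TRH receptor, stood at 16.9, 15.7 and 13.6 CPM in LP, at 17.1, 13.0 and 16.7 CPM in HP and at 13.2, 12.2 and 9.59 CPM in HA. Every HA library was below every LP library, but HP replicate 2 lay within HA. Its estimate was -0.42 in HA against HP and -0.40 in HA against LP, with unadjusted p of 0.0198 and 0.0241 and adjusted p of 0.84 and 0.756 (edgeR). Trhde, the ectoenzyme that degrades TRH, had -0.16 and -0.25 in the same comparisons (adjusted p = 0.842 and 0.761). In HA against LP, 2 of these 5 genes had an unadjusted p under 0.05 and lay lower, where 3.45% of all genes did. Qpct, a glutaminyl cyclase that forms the pyroglutamate end of TRH, stood at 42.9, 41.1 and 41.4 CPM in LP and at 44.7, 47.3 and 43.8 CPM in HP without overlap (log2 fold change 0.11, adjusted p = 0.816). Trhde had -0.09 in that comparison (adjusted p = 0.935).

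The reproductive axis had low or 0 counts for its 2 best known members. Gnrh1 (ENSMUSG00000015812, chromosome 14, 67745181 to 67749439, protein-coding) is made by a small scattered population of preoptic neurons. It had 31, 48 and 21 counts in LP, 78, 34 and 32 in HP and 52, 35 and 37 in HA, which are 1.51, 2.27 and 1.13 CPM, 4.34, 1.76 and 1.67 CPM and 2.39, 1.87 and 1.97 CPM. HP replicate 1 stood alone at the top, as it did for Crh, and the other 8 libraries overlapped across groups. The log2 fold change of HP against LP was 0.65 (95% interval -0.22 to 1.52, adjusted p = 0.872, edgeR) and was 0.07 without HP replicate 1. HA against HP had -0.31 (-1.17 to 0.55, adjusted p = 0.905), and 0.27 without that library. Both intervals include 0. The summed level of 7 preoptic and suprachiasmatic markers (Vip, Nms, Lhx1, Prok2, Gal, Foxp2 and Hmx2) was 98.3 to 108 CPM over the 9 libraries, with 102 CPM in HP replicate 1. Gal gave 44.1 to 57.0 CPM of this sum, and the part of preoptic tissue in the level of Gnrh1 was not tested.

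Kiss1 (ENSMUSG00000116158, chromosome 1, 133321875 to 133329901, protein-coding) had 0 counts in all 9 libraries. A count of 0 alone would allow up to 0.137 to 0.165 CPM per library (3 counts of the total, for counting error only). However, all 779 exonic bases of Kiss1 in GENCODE M21 also lie in exons of another gene model on the same strand, Gm28040. All windows of 100 bases along the longer Kiss1 transcript (680 of 680) occur in a Gm28040 transcript. The last 60 coding bases of Kiss1 (chr1:133329583-133329642, plus strand), shown because they encode the C-terminal end of kisspeptin and the rest of its prohormone, occur in all 5 Gm28040 transcripts.
Kiss1 coding end: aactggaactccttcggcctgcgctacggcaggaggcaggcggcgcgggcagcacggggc
The 4 gene models of the locus (Kiss1, Golt1a and both Gm28040 models) held 17 counts in all over the 9 libraries. How reads that overlap several genes were counted is not given in the sources used here. Among protein-coding genes of the table whose exonic bases are all shared with another gene, 145 of 176 (82.4%) had 0 counts in every library, against 19.9% of 15386 genes with no shared base. Whether the 0 of Kiss1 comes from this sharing was not tested, and no level of it and no difference between groups is read here. The other 9 members shared no exonic base with another gene.

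Tac2 (ENSMUSG00000025400, chromosome 10, 127724478 to 127731768, protein-coding), which encodes neurokinin B, varied least of the 3 counted members of this axis. It stood at 22.7, 19.9 and 19.9 CPM in LP, at 21.5, 24.1 and 21.5 CPM in HP and at 21.5, 22.0 and 24.6 CPM in HA. The groups overlapped, with log2 fold changes of 0.10 (95% interval -0.09 to 0.30), 0.02 (-0.18 to 0.21) and 0.12 (-0.08 to 0.32) for the diet, the injection and both together, and adjusted p of 0.895, 0.981 and 0.839 (edgeR). Neurokinin B is also made outside the arcuate nucleus, so this level is not that of the arcuate kisspeptin neurons alone.

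Npvf (ENSMUSG00000029831, chromosome 6, 50650672 to 50654439, protein-coding), made in the dorsomedial hypothalamus, stood at 21.2, 11.6 and 17.4 CPM in LP, at 13.4, 12.3 and 19.4 CPM in HP and at 16.5, 9.20 and 12.2 CPM in HA. The highest and lowest library differed by 2.30 times, and the ranges of the 3 groups overlapped widely. The log2 fold change was -0.15 in HP against LP (95% interval -0.74 to 0.43), -0.25 in HA against HP (-0.84 to 0.35) and -0.40 in HA against LP (-0.99 to 0.19), with adjusted p of 0.956, 0.887 and 0.832 (edgeR). Pmch, the melanin-concentrating hormone gene of the lateral hypothalamus, moved with it over the 9 libraries (r = 0.71, rho = 0.85, and r = 0.52 without the 2 libraries farthest from the median of Npvf), as a description. So did Hcrt (r = 0.71, rho = 0.68, and r = 0.56 without those libraries). Other hypothalamic neuron markers did not, and the sum of that list had r = -0.17 with Npvf. Pearson's r was 0.106 to 0.215 for Gal, Sim1 and Otp. It was -0.22 to -0.59 for Avp, Oxt, Agrp, Npy, Pomc, Cartpt and Nkx2-1.

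Of 16 other genes of the gonadotropin axis, 15 were tested and 0 were called, and 0 had an unadjusted p under 0.05 in any comparison. Over all genes tested that share was 6.12% in HP against LP, 5.42% in HA against HP and 6.51% in HA against LP. For 15 genes a count of 0 is close to these shares. Kiss1r, the kisspeptin receptor that GnRH neurons carry, lay between 7.56 and 10.3 CPM, but it shares 6.41% of its exonic bases with R3hdm4 on the other strand, which had 1372 counts on average against 177. Npffr1, the receptor for the Npvf peptides, lay between 11.3 and 17.6 CPM. Pdyn, whose dynorphin restrains GnRH release, and the oestrogen receptor gene Esr1 were the pair of smallest p in HP against LP (log2 fold change -0.21 and 0.25, adjusted p = 0.816 and 0.826, edgeR). Tacr3, the receptor for neurokinin B, had -0.21 in HA against HP and -0.29 in HA against LP (adjusted p = 0.844 and 0.797). Lin28b, a regulator of developmental timing, had -0.17 in HA against HP (adjusted p = 0.84).

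**Figure D3:**
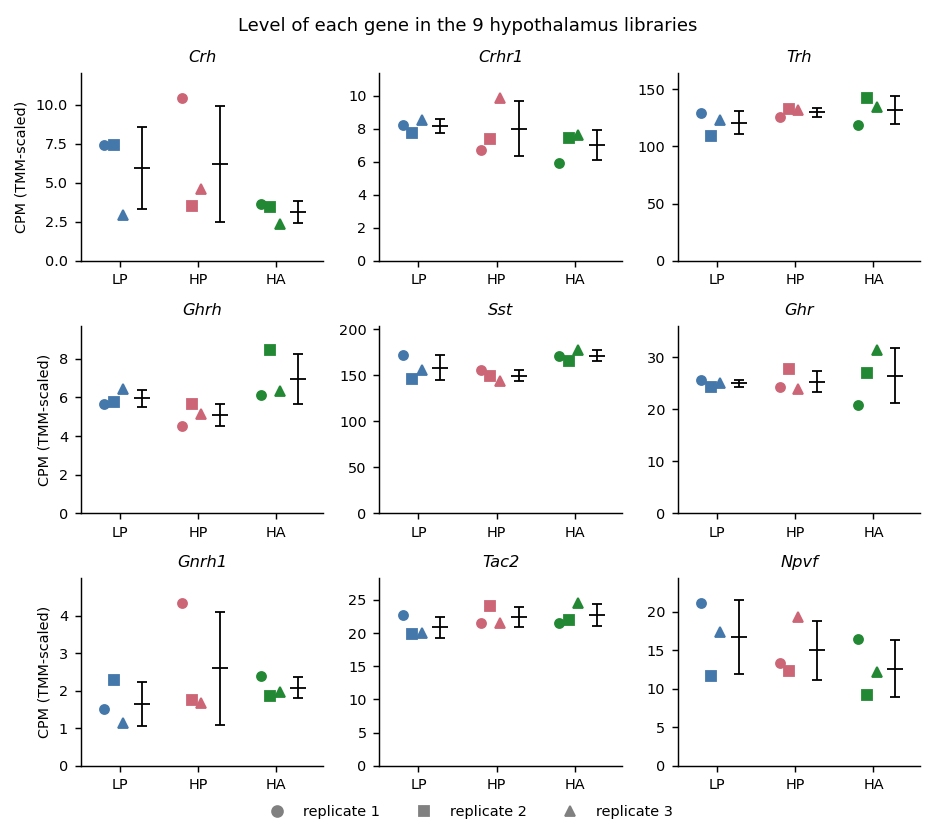
CPM of the 9 counted members in LP, HP and HA, with marker shape for the replicate and a bar with whiskers for mean and SD (n = 3 each). All HA points of Sst and Ghrh lie above all HP points, while Crh and Gnrh1 in HP are spread by replicate 1 (10.5 and 4.34 CPM).

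The members fell apart in how much libraries of the same group differed. The within-group coefficient of variation (CV, pooled over the 3 groups) was 45.0% for Crh, 40.3% for Gnrh1 and 27.8% for Npvf. It was 14.5% for Crhr1, 13.1% for Ghrh, 12.6% for Ghr, 7.44% for Trh, 7.19% for Tac2 and 5.72% for Sst, beside a median of 9.23% over all genes tested. Counting error alone, from the mean count, would give 10.0% for Crh, 15.6% for Gnrh1 and 5.87% for Npvf. The spread of Crh was thus 4.49 times and that of Npvf 4.74 times the counting error, while Ghrh, Tac2 and Crhr1 were at 1.42, 1.49 and 1.78 times. Trh, Sst, Ghr and Gnrh1 lay between, at 3.70, 3.20, 2.80 and 2.57 times. Crh and Ghrh have similar mean counts (99.4 and 117), and counting error alone would be close to equal for them.

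**Figure D4:**
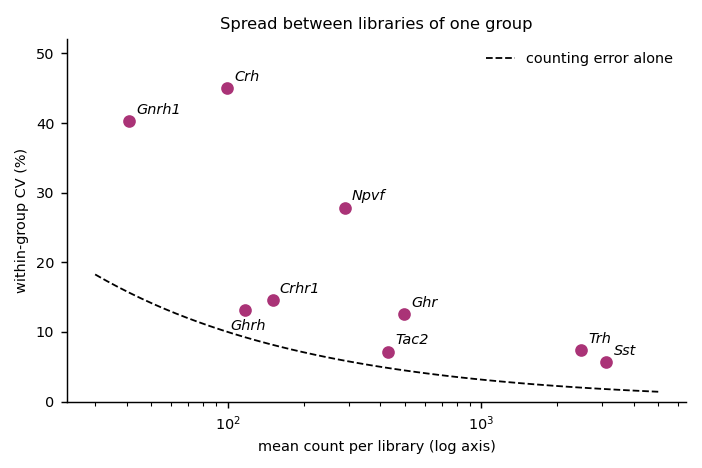
Within-group CV (%) of the 9 counted members against their mean count per library (log axis), with the dashed line for counting error alone. Crh, Gnrh1 and Npvf lie far above the line, and Ghrh and Tac2 lie near it.

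Set side by side, the libraries did not rank the members alike. HP replicate 1 was the highest library for Crh and Gnrh1 and the lowest for Ghrh. HA replicate 3 was the lowest for Crh and the highest for Sst, Tac2 and Ghr. Over the 36 pairs of members, Pearson's r of the log2 levels lay between -0.64 (Crh and Ghrh, rho = -0.82) and 0.67 (Tac2 and Ghr, rho = 0.77). Without the 2 libraries farthest from the median of Crh, r was -0.37 for Crh with Ghrh. Without the 2 farthest from the median of Tac2, it was 0.14 for Tac2 with Ghr. Leaving such libraries out also narrows the range of that gene, so how far these r values rest on them cannot be told. Trh with Tac2 had r = 0.65 and rho = 0.85, and r = 0.73 without 2 libraries. These are descriptions over 9 libraries that also hold the group differences.

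**Figure D5:**
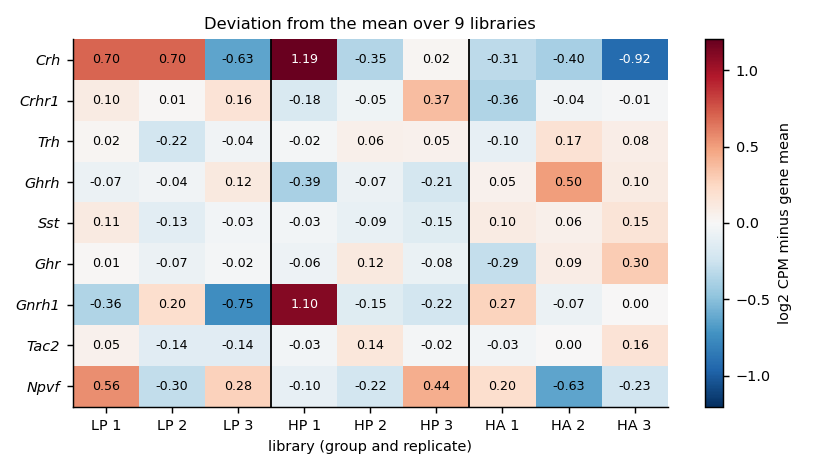
Deviation of each member's log2 CPM from its mean over the 9 libraries, with members in rows and libraries in columns by group. Crh runs from -0.92 (HA replicate 3) to 1.19 (HP replicate 1), and Gnrh1 from -0.75 (LP replicate 3) to 1.10 (HP replicate 1), while Sst stays between -0.15 and 0.15.

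Genes that peptide neurons share for making their hormones, and the prolactin inhibitor dopamine, were read in the same fit. Of 10 genes of prohormone processing 0 were called. Chga, which encodes chromogranin A of the secretory granule, had the smallest p of the 64 partner genes tested. Chga stood at 311, 305 and 326 CPM in LP, at 251, 253 and 247 CPM in HP and at 271, 274 and 249 CPM in HA, and both HP and HA lay below LP without overlap. It had a log2 fold change of -0.33 in HP against LP, -0.25 in HA against LP and 0.08 in HA against HP (adjusted p = 0.118, 0.404 and 0.84, edgeR). Pcsk2, a prohormone convertase, had -0.14 in HP against LP (adjusted p = 0.829), Chgb had 0.09 in HA against HP (0.84) and Cpe had -0.11 in HA against LP (0.816). Th, the rate-limiting enzyme of dopamine synthesis, stood at 29.7, 31.3 and 41.7 CPM in LP, at 22.8, 26.5 and 31.2 CPM in HP and at 25.0, 24.7 and 26.4 CPM in HA. Every HA library lay below every LP library (log2 fold change -0.43, unadjusted p = 0.0112, adjusted p = 0.702, edgeR), and LP replicate 3 was the highest. That library was high in meningeal markers, as was HA replicate 3, which had 26.4 CPM of Th. HP against LP had -0.35 (adjusted p = 0.807) and HA against HP -0.08 (0.927). The vesicle transporter gene Slc18a2 had -0.28 in HP against LP (0.872), the dopamine transporter gene Slc6a3 had -1.30 in HA against LP (0.791) and the prolactin receptor gene Prlr had -0.14 in HA against HP (0.881). Slc6a3 stood at 5.65, 16.1 and 43.8 CPM in LP and at 8.06, 11.4 and 7.03 CPM in HA, with overlap. LP replicate 3 was thus the highest library for Slc6a3 as for Th, and it was also the highest for Slc18a2 (85.3 CPM).

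Transcription factors that specify these neurons were tested for all 12 genes of the list, and 0 were called. All 12 had an estimate at or above 0 in HP against LP (median log2 fold change 0.08, beside -0.002 over all genes), where 8612 of the 17546 genes tested were higher in HP. The estimates of Arnt2 (0.000), Isl1 (0.006), Otp (0.011) and Pou3f2 (0.012) were close to 0. In HA against HP, 6 had a higher and 6 a lower estimate, and 3 lay lower without overlap, as 1034 of the 17546 genes tested did. Hmx2, a homeobox factor of Ghrh neurons, stood at 4.87, 3.93 and 3.71 CPM in LP, at 6.18, 4.92 and 5.75 CPM in HP and at 4.33, 4.44 and 3.83 CPM in HA. All HP libraries were above all others, with log2 fold changes of 0.43 in HP against LP and -0.42 in HA against HP (unadjusted p = 0.0231 and 0.0258, adjusted p = 0.797 and 0.84, edgeR). Ghrh itself had its lowest group level in HP. Nkx2-1, a master factor of the ventral hypothalamus, had 0.14 in HP against LP (adjusted p = 0.886). Arnt2, needed with Sim1 for Crh and Trh neurons, had -0.09 in HA against HP and -0.09 in HA against LP. Its unadjusted p was 0.0476 and 0.0477 and its adjusted p 0.84 and 0.761 (edgeR). Every HA library of Arnt2 (235 to 240 CPM) lay below every HP library (lowest 244 CPM) and every LP library (lowest 247 CPM). Tbx3, a factor of the arcuate nucleus, had 0.40 in HA against LP (adjusted p = 0.78, edgeR).

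For each member the protein-coding genes most like it across the 9 libraries were taken as the 2 of highest Pearson r among 11813 with a mean of at least 5 CPM. Crh was followed most closely by Gzf1 (r = 0.99, rho = 0.97) and Phf24 (r = 0.97, rho = 0.93), though Gzf1 ran only from 45.1 to 53.9 CPM. Trh was followed by Fezf1 (r = 0.98, rho = 0.98), which encodes a zinc finger factor and ran from 17.9 to 29.1 CPM, and by Caprin2 (r = 0.91, rho = 0.92). Sst was followed by Man2b2 (r = 0.94, rho = 0.83) and Slc39a8 (r = 0.91, rho = 0.92). Man2b2 stood at 26.5 to 31.6 CPM in LP replicate 1 and the HA libraries and at 15.0 to 17.4 CPM in the others, with none between. Ghrh was followed by Leng8 (r = 0.93, rho = 0.87) and Ndp (r = 0.93, rho = 0.72). For Gnrh1 these were Sall1 and Mfhas1 (r = 0.94 and 0.93), for Tac2 Fbxo30 and Mettl7a1 (0.92 and 0.91), and for Npvf Rxrb and Dcakd (0.94 and 0.94). For Ghr they were Fndc3a and Dnajc1 (both 0.95), and for Crhr1 Gpd1l and Kcnk6 (0.91 and 0.90). Without the 2 libraries farthest from the median of the member, r lay at 0.99 for Gzf1, 0.95 for Fezf1, 0.91 for Man2b2 and 0.69 for Ndp. The highest r among so many genes over 9 libraries is high by selection, and it is given as a description.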

How the data were processed

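RNA of the hypothalamus was sequenced in 9 libraries, made with a NEBNext Ultra kit (strand not stated). Per the submitters' processing notes, the tools were DESeq2 1.16.1, featureCounts 1.5.0-p3 and HISAT2 2.0.5. The authors deposited whole-number read counts per gene, which are not normalized, and FPKM values for the same libraries. The notes name mm9, but 53499 of 54409 shared identifiers (98.3%) have the GRCm38 start and end of GENCODE M21, so coordinates are read as GRCm38. The count table was fitted with edgeR 4.0.16 (filterByExpr, 17546 genes kept, TMM, quasi-likelihood F test, group as the only term, 9 libraries) in R 4.3.3. P-values are two-sided and adjusted by Benjamini-Hochberg over all genes, threshold 0.05. The SE is the size of the log2 fold change divided by the square root of F, and intervals (95%) use the t distribution. Log2 CPM has a prior count of 2. With 3 libraries a group the smallest two-sided exact permutation p is 0.1, so that test was not used. Alternatives used DESeq2 1.42.0, limma 3.58.1, other scalings and filters, log2(FPKM + 0.1 or 1), a replicate block and left-out libraries. The members and gene lists were chosen with earlier results of these data known. Named partner genes are the 2 of smallest p per list and comparison, and markers where they move with a member. A gene that this rule names is not reported here.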

Additional observations from a re-analysis of the deposited data

How the results depend on the processing

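No member was called under any of the alternatives, and the lowest adjusted p among 549 member values was 0.386. Of those values 526 kept the direction of the reported estimate and 23 did not. Sst and Ghrh kept theirs in HA against HP under all 21 alternatives, with log2 fold changes of 0.167 to 0.225 and 0.293 to 0.535. For the 23 the cause was not tested. With single libraries left out, estimates that turned ranged from -0.545 to 0.338 for Crh, -0.382 to 0.054 for Npvf, -0.051 to 0.059 for Ghr and -0.211 to 0.080 for Crhr1 in HP against LP. In HA against HP the ranges were -0.036 to 0.088 for Trh, -0.548 to 0.272 for Gnrh1, -0.040 to 0.077 for Tac2 and -0.080 to 0.201 for Ghr, and in HA against LP -0.062 to 0.222 for Ghr. Without LP replicate 3 and HA replicate 3, Crh (-0.271) and Crhr1 (0.005) turned in HP against LP, Tac2 (-0.040) and Ghr (-0.081) in HA against HP, and Ghr (-0.058) in HA against LP. limma-voom gave Crh -0.023 in HP against LP, and leaving out LP replicates 1 and 2 gave Crh 0.108 in HA against LP.

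The count of all genes called moved more. It was 2 in HP against LP, and 1 with scaling by library totals, 53 with no filter on low counts, 32 with DESeq2, 4 with the 2 groups alone, 37 without LP replicate 3 and HA replicate 3, and 1 to 21 with single libraries left out. In HA against HP it was 2, and 5 with no filter, 8 with DESeq2, 10 without that pair of libraries and 1 to 9 with single libraries left out. In HA against LP it was 0, and 41 with no filter, 27 with DESeq2, 1 with the 2 groups alone, 23 without that pair and 0 to 14 with single libraries left out. With the replicate number as a block, 4 genes and 0 members were called in HP against LP, 2 and 0 in HA against HP and 0 and 0 in HA against LP. Deviations of libraries with the same number had correlations of 0.000 to 0.669, LP replicate 1 was closest to HA replicate 2, and the labels state no pairing. Members without overlap in HA against LP numbered 1, and 0 with library totals and 3 without LP replicate 3 and HA replicate 3, in settings chosen after seeing the data. Counting error was highest for Gnrh1 (15.6%) and Crh (10.0%), below their within-group CV of 40.3% and 45.0%.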

Other observations

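Some partner and marker genes differed widely between libraries of a group. LP replicate 3 and HA replicate 3, in which the meningeal markers summed to 516 and 1089 CPM, were also the highest in Igf1, whose product feeds back on growth hormone, with 25.8 and 60.7 CPM. In the other 7 libraries Igf1 lay between 4.88 and 9.26 CPM. The highest Gh level, 16.2 CPM, was in HA replicate 3, and the next was 2.53 CPM. The highest Slc6a3 level, 43.8 CPM, was in LP replicate 3, with 4.23 to 16.3 CPM in the others. Ucn3, which encodes urocortin 3, a ligand of Crhr2, stood at 2.97, 0.805 and 0.215 CPM in LP, at 2.28, 0.259 and 1.41 CPM in HP and at 1.75, 0.321 and 0.213 CPM in HA (HA against HP log2 fold change -0.74, adjusted p = 0.909, and HA against LP -0.77, adjusted p = 0.902, edgeR).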
